A study of Sus scrofa domesticus with 16 samples.

Results

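The genes described here are the heat shock chaperones of the porcine adrenal gland, most of them cytosolic or mitochondrial. They were chosen by symbol from the annotation of the array: symbols of the HSPA, HSPB, HSPD, HSPE, HSPH, HSP90A, DNAJ, BAG and CCT families, with STIP1, HSF1, CRYAB and TCP1. The 3 chaperones HSPA5, DNAJB9 and DNAJB11 of the endoplasmic reticulum were left out, while HSPA13 and DNAJC3, which also belong to that compartment, fall under the rule. The rule found 54 of 6765 genes with 1 symbol, each represented by its brightest probe set, which is the group of short probes that reads a transcript. The mean signal of 52 of them passed the filter on dim probe sets, and these were tested.

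The glands came from 16 domestic pigs (Sus scrofa domesticus), 1 array each. The 8 high stress animals came from a mixing treatment of high aggressiveness and the 8 low stress animals from one of low aggressiveness. Both groups consisted of animals that had met unfamiliar pigs, and the study states that they were chosen to differ in aggressive behaviour and in plasma cortisol, so no unmixed animals were compared. Age, sex and the time between mixing and sampling were not given in the sources used here.

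Heat shock chaperones bind proteins that are not, or no longer, folded. Hsp70 proteins hold exposed stretches under ATP hydrolysis that J-domain proteins start and nucleotide exchange factors reset; Hsp90, the chaperonins of the cytosol and the Hsp60 and Hsp10 pair of the mitochondria act on narrower sets of clients, and the small heat shock proteins bind clients without ATP. HSF1 is the transcription factor that raises many of these genes when misfolded protein accumulates. In steroid-producing cells Hsp90 and its partners also hold the glucocorticoid receptor ready for hormone.

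The array medians lay between 116 and 147 signal units. By the signal of the spiked-in bacterial control dap, the 16 arrays fell into 2 sets of 8, called low-spike and high-spike here. It lay between 317 and 515 in one and between 3183 and 4613 in the other. Each set held 4 animals of each stress group, and no label names the split. The ratio of actin signal near the 3′ end to that near the 5′ end, a sign of RNA length, ran from 9.97 to 21.9 on low-spike arrays. On high-spike arrays it ran from 5.28 to 8.80. The same ratio for GAPDH moved the other way, with overlap. It ran from 1.28 to 1.46 on low-spike arrays and from 1.39 to 1.68 on high-spike arrays. Markers of the labelled tissue lay far above the log2 filter of 6.15. The 8 measured of 10 markers of steroid-producing cortex had a mean log2 signal of 13.01 ± 0.11 (SD, n = 8) in high stress and 12.99 ± 0.16 (SD, n = 8) in low stress glands. The 5 measured of 8 chromaffin cell markers averaged 12.55 and 12.50. In 8 further lists of cell type markers (muscle, fat, immune, endothelial, fibroblast and blood) 0 genes passed the stress test. Of 7 measured smooth muscle markers 5 were higher and 2 lower in high stress glands. The largest log2 differences were 0.57 for TPM2 and 0.50 for TAGLN (unadjusted p = 0.0419 and 0.0222, limma), positive in both spike-in sets. With the set added to the fit, p was 0.0065 and 0.0033 (limma, unadjusted), and the adjusted p was 0.682 for both. The bearing of these markers on the stress differences of the chaperones was not tested. In whole glands fewer cells of a type and less RNA per cell cannot be told apart.

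No chaperone gene passed the test between high and low stress glands. Of 52 tested members, 0 passed an adjusted p of 0.05 (limma, Benjamini-Hochberg over 14399 probe sets), and of all probe sets 0 passed, which is 0.0%. At an unadjusted p under 0.05 there were 0 members, against 164 of 5455 tested genes (3.01%). The values were higher in high stress glands for 25 members and lower for 27, with a median log2 difference of -0.01, and for 50.2% of all tested genes, whose median was 0.00062. Under quantile normalization 23 of 52 were higher and under median centring 37. The difference ran from -0.40 for DNAJB4 to 0.27 for CRYAB, and the groups overlapped for all 52 members (0.0367% of tested genes did not overlap). The 95% confidence interval lay inside a 1.5-fold change in both directions for 44 of 52 members (84.6%) and for 79.9% of all tested genes.

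**Figure D1:**
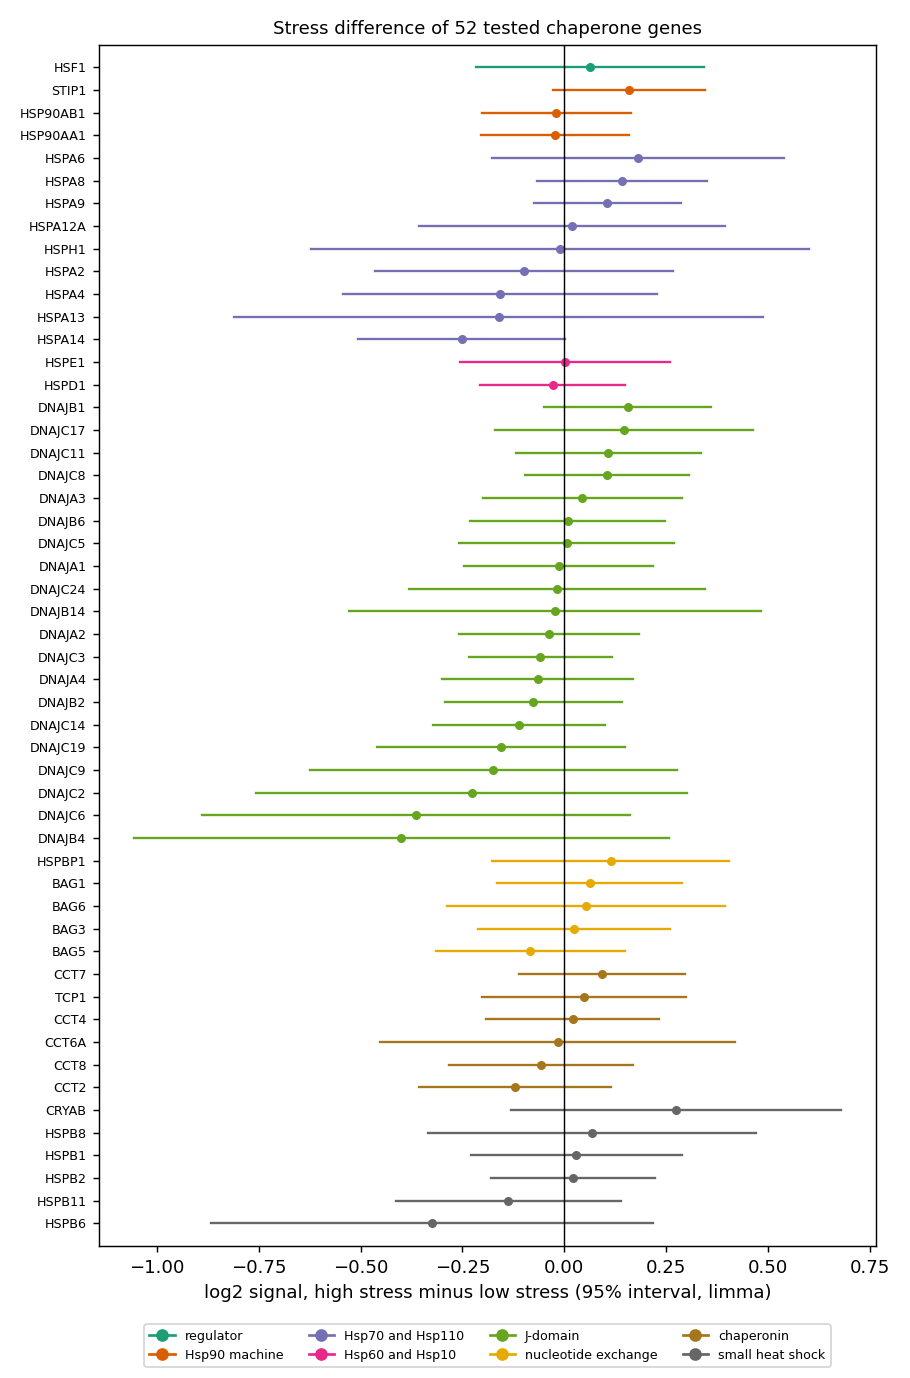
Difference in log2 signal between high and low stress glands (x axis, points) with its 95% confidence interval from limma (lines) for the 52 tested members (y axis), coloured by role, n = 8 per group. The estimates lie between -0.40 and 0.27, and every interval includes 0.

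The fit was repeated with the spike-in set as a block, since each set holds both stress groups. It gave 0 members past the threshold, and 1 of 14399 probe sets (0.00694%), not a member. At an unadjusted p under 0.05 it gave 1 member, HSPA14, against 6.2% of all tested genes. The intervals of 48 of 52 members (92.3%) and of 85.5% of all tested genes then lay inside a 1.5-fold change. Within the low-spike set 5 members had an unadjusted p under 0.05 (HSPA14, DNAJB4, CRYAB, HSPB6 and HSPB11), against 6.45% of tested genes, and the lowest adjusted p of a member was 0.639 (limma). Within the high-spike set there were 0. The signs differed between the sets for 21 members, and the interaction of set and stress passed for 0 of 52 members and for 0 of 5455 genes (0.0%).

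HSF1, by its brightest probe set, had nearly the same level in both groups. Its log2 signal ran from 8.44 over a median of 9.21 to 9.50 in high stress glands and from 8.87 over 9.05 to 9.25 in low stress glands. The low stress animals lay inside the range of the high stress animals. The difference was 0.06 (SE 0.13, 95% interval -0.22 to 0.34, limma). The other probe set of the gene, dimmer at a mean log2 signal of 6.56, gave -0.21. The message of HSF1 does not report the protein's activity, which is set after translation.

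The 12 measured members that textbooks list as heat-inducible are HSP90AA1, STIP1, HSPA8, HSPA6, HSPH1, DNAJA1, DNAJB1, HSPD1, HSPE1, HSPB1, CRYAB and BAG3. HSPA8 is counted here although it is the constitutive form. HSPA1A, HSPA1B and HSPA4L were also on the list but not among the members found. The 12 were higher in high stress glands for 8 and lower for 4, and 0 passed. Their median log2 difference was 0.03 beside 0.00062 over all tested genes. Under quantile normalization 6 were higher, and under centring each array on its median all 12 were higher. That centring moves the median of all genes to 0.07.

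**Figure D2:**
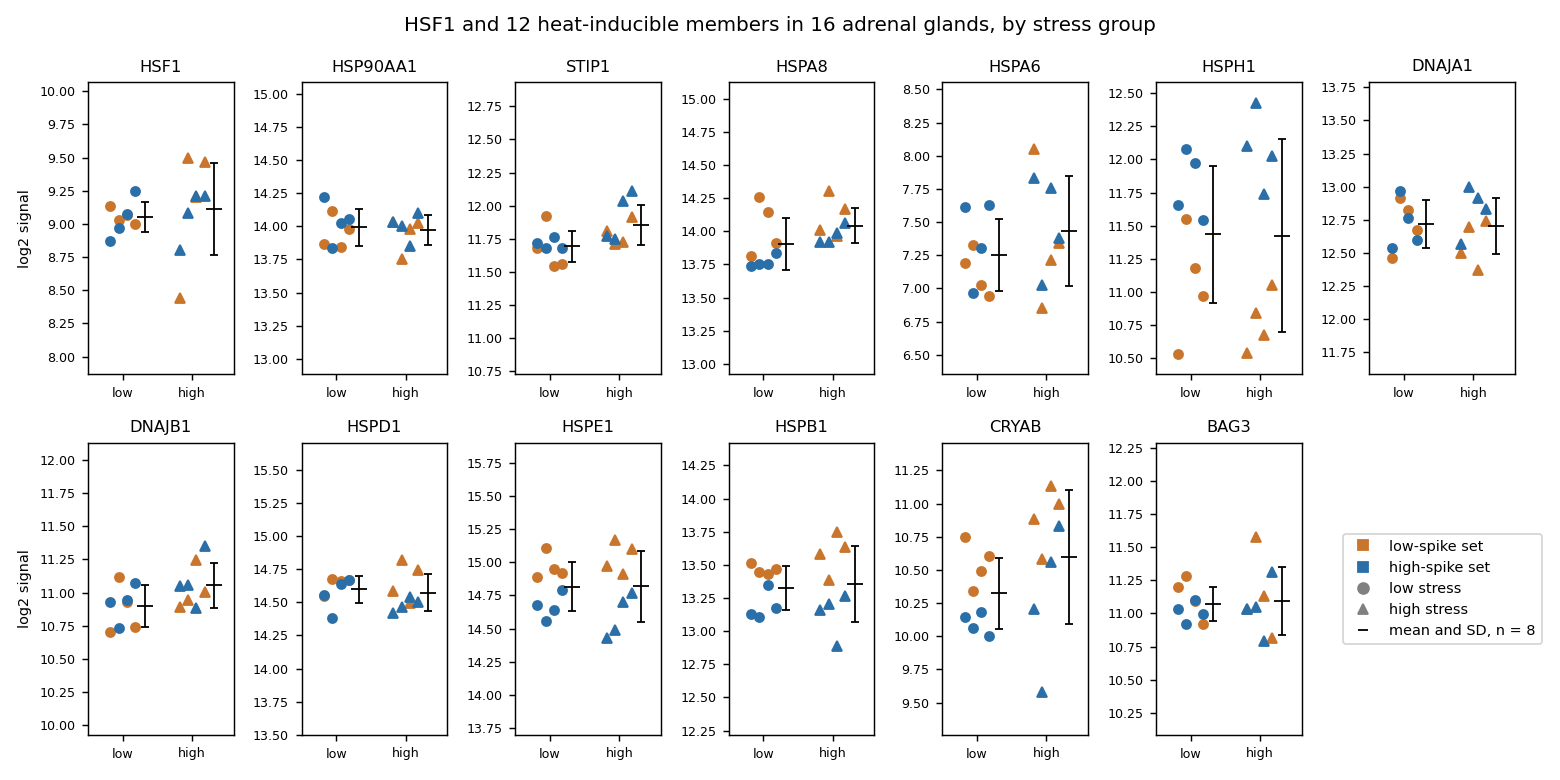
Log2 signal (y axis) of HSF1 and the 12 heat-inducible members in each of 16 glands, by stress group (x axis; circles low stress, triangles high stress) and spike-in set (orange low-spike, blue high-spike), with the mean and SD of each group of 8 as bars. The groups overlap in every panel, and for HSPH1, HSPE1 and HSPB1 the set separates the glands more than the stress group does.

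The Hsp90 machine consists of the 2 cytosolic Hsp90 genes and STIP1, which hands clients from Hsp70 to Hsp90. HSP90AA1, the stress-responsive form, ran from 13.75 over 14.01 to 14.10 in high stress glands and from 13.84 over 14.01 to 14.22 in low stress glands, and the groups overlapped over most of their range. Its difference was -0.02 (SE 0.09, 95% interval -0.20 to 0.16). HSP90AB1, the constitutive form, had a difference of -0.02 (SE 0.09, 95% interval -0.20 to 0.16). STIP1 ran from 11.71 over 11.79 to 12.11 in high stress glands and from 11.55 over 11.68 to 11.92 in low stress glands. All 8 high stress animals exceeded the mean of the low stress group, and the ranges still overlapped. Its difference was 0.16 (SE 0.09, 95% interval -0.03 to 0.35, adjusted p = 0.999, limma).

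Among the 9 members of the Hsp70 and Hsp110 group 4 had higher and 5 lower values (4 higher under quantile normalization, 5 under median centring). HSPA8, the constitutive Hsp70 of the cytosol, ran from 13.92 over 13.999 to 14.31 in high stress glands and from 13.74 over 13.83 to 14.26 in low stress glands. Again all 8 high stress animals exceeded the mean of the other group, and the ranges overlapped. The 3 other probe sets of the gene gave differences of 0.01, -0.09 and -0.12. Its brightest probe set gave 0.14 (SE 0.10, 95% interval -0.07 to 0.35). HSPA9, the Hsp70 of the mitochondrial matrix, gave 0.11 (SE 0.09).

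HSPA6 is a strictly inducible Hsp70 whose sequence is close to its paralogs, so its probe set may read them too. Its values ran from 6.86 over 7.36 to 8.05 in high stress glands and from 6.94 over 7.25 to 7.63 in low stress glands. The low stress range lay within the high stress range, and the difference was 0.18 (SE 0.17, 95% interval -0.18 to 0.54). The porcine gene annotated as HSP70.2, an inducible Hsp70 that the symbol rule does not take, ran from 12.92 over 13.49 to 13.69 in high stress glands and from 13.09 over 13.28 to 13.47 in low stress glands. Its groups overlapped, with a difference of 0.11 (SE 0.11, 95% interval -0.13 to 0.34).

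HSPH1, an Hsp110 that resets Hsp70, varied widely among arrays, and the spike-in sets differed in it by 1.02. It ran from 10.54 over 11.40 to 12.43 in high stress glands and from 10.54 over 11.55 to 12.08 in low stress glands. Both groups covered nearly the same range, and the difference was -0.01 (SE 0.29, 95% interval -0.62 to 0.60). With the set as a block its SE was 0.16 and its interval -0.34 to 0.32, inside a 1.5-fold change. HSPA14, an atypical Hsp70 that sits at the ribosome, had the smallest p of the members. It ran from 8.63 over 9.05 to 9.32 in high stress glands and from 8.81 over 9.28 to 9.47 in low stress glands. Only 1 of 8 high stress animals exceeded the low stress mean, and the ranges overlapped. The difference was -0.25 (SE 0.12, 95% interval -0.51 to 0.0021, adjusted p = 0.999, limma), and blocking on the set gave an adjusted p of 0.782 (limma). The other members, HSPA2, HSPA4, HSPA12A and HSPA13, had differences between -0.16 and 0.02.

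The mitochondrial chaperonin is built from HSPD1 (Hsp60) and its lid HSPE1 (Hsp10), and neither passed the test. HSPD1 ran from 14.42 over 14.52 to 14.82 in high stress glands and from 14.38 over 14.65 to 14.67 in low stress glands. The low stress animals lay close together apart from 1 low animal. The difference was -0.03 (SE 0.08, 95% interval -0.21 to 0.15), which in linear terms is a ratio between 0.866 and 1.11. HSPE1 ran from 14.43 over 14.84 to 15.17 in high stress glands and from 14.56 over 14.84 to 15.11 in low stress glands. The low stress range lay within the high stress range, with a difference of 0.00163 (SE 0.12, 95% interval -0.26 to 0.26).

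The 20 J-domain proteins, which deliver clients to Hsp70 and start its ATP hydrolysis, had higher values for 7 and lower values for 13 (8 higher under quantile normalization, 13 under median centring). DNAJB1, the main inducible partner of Hsp70, ran from 10.89 over 11.03 to 11.35 in high stress glands and from 10.71 over 10.93 to 11.12 in low stress glands. The high stress values sat towards the upper part of a shared range, and the difference was 0.16 (SE 0.10, 95% interval -0.05 to 0.36). DNAJA1 ran from 12.38 over 12.72 to 12.999 in high stress glands and from 12.46 over 12.72 to 12.97 in low stress glands. The medians were alike, and the difference was -0.01 (SE 0.11, 95% interval -0.25 to 0.22).

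Of the 5 tested members with the largest spread within the sets, 4 were J-domain genes: DNAJC6, DNAJB4, DNAJC2 and DNAJC9. DNAJB4, a cytosolic J-domain protein, ran from 6.73 over 8.11 to 9.52 in high stress glands and from 7.82 over 8.59 to 9.39 in low stress glands. The low stress range lay inside the high stress range, and the difference of -0.40 (SE 0.31, 95% interval -1.06 to 0.26) was -0.75 on low-spike arrays and -0.05 on high-spike arrays. DNAJC6 (auxilin), which uncoats clathrin vesicles with Hsp70, ran from 8.28 over 9.84 to 10.37 in high stress glands and from 9.48 over 10.13 to 10.49 in low stress glands. The high stress group held the lowest animal, and the difference was -0.36 (SE 0.25, 95% interval -0.89 to 0.16). Without high stress replicate 6 the differences of DNAJB4 and DNAJC6 were -0.19 and -0.17. DNAJC2, the J-domain protein at the ribosome that works with HSPA14, ran from 6.87 over 7.90 to 8.76 and from 7.53 over 8.12 to 8.80 in high and low stress glands. DNAJC9, a histone chaperone, ran from 5.76 over 6.71 to 7.22 and from 6.39 over 6.79 to 7.64. Both had wide overlap, with differences of -0.23 (SE 0.25) and -0.17 (SE 0.21). The other 14 J-domain members had differences between -0.16 (DNAJC19) and 0.15 (DNAJC17). DNAJA3, a mitochondrial J-domain protein, was the only member with an unadjusted interaction p under 0.05: its stress difference was 0.29 on low-spike arrays and -0.20 on high-spike arrays (interaction -0.49, SE 0.20, adjusted p = 0.9996, limma).

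Nucleotide exchange factors release ADP and client from Hsp70. The 5 members grouped with them by symbol, whose function was not examined one by one, had higher values for 4 and a lower value for BAG5 (3 higher under quantile normalization, 4 under median centring). BAG3, a heat-inducible BAG protein that links Hsp70 to small heat shock proteins and autophagy, ran from 10.79 over 11.04 to 11.58 in high stress glands and from 10.92 over 11.06 to 11.28 in low stress glands. The low stress animals lay inside the high stress range, and the difference was 0.02 (SE 0.11, 95% interval -0.21 to 0.26). BAG1, BAG5, BAG6 and HSPBP1 had differences from -0.08 to 0.11. The 6 measured subunits of the cytosolic chaperonin TRiC, which folds actin and tubulin, were split evenly: TCP1, CCT4 and CCT7 higher and CCT2, CCT6A and CCT8 lower, from -0.12 to 0.09 (2 higher under quantile normalization, 5 under median centring).

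Of 8 members grouped as small heat shock proteins by their symbols, which need not reflect their function, HSPB3 and HSPB7 lay below the filter. HSPB3 had a mean log2 signal of 6.23 ± 0.63 (SD, n = 8) in high stress and 5.78 ± 0.81 (SD, n = 8) in low stress glands. HSPB7 had 5.36 ± 1.83 and 5.47 ± 1.21. CRYAB (αB-crystallin) ran from 9.58 over 10.71 to 11.13 in high stress glands and from 10.004 over 10.26 to 10.75 in low stress glands. The high stress group held both the lowest and the highest animal. The difference was the most positive of all members, 0.27 (SE 0.19, 95% interval -0.13 to 0.68, adjusted p = 0.999, limma). HSPB1 (Hsp27) ran from 12.89 over 13.32 to 13.75 in high stress glands and from 13.11 over 13.39 to 13.52 in low stress glands, again with the low stress animals inside the high stress range. Its difference was 0.03 (SE 0.12, 95% interval -0.23 to 0.29).

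HSPB6 (Hsp20), abundant in smooth muscle, ran from 6.01 over 7.36 to 7.62 in high stress glands and from 6.46 over 7.38 to 8.01 in low stress glands. The medians were alike and the extremes of the high stress group lower, with a difference of -0.32 (SE 0.26, 95% interval -0.87 to 0.22) that was -0.17 without high stress replicate 2. HSPB8, the partner of BAG3, ran from 8.53 over 9.36 to 10.14 in high stress glands and from 8.85 over 9.32 to 9.67 in low stress glands. The low stress animals lay inside the high stress range, and the difference was 0.07 (SE 0.19, 95% interval -0.34 to 0.47). HSPB2 gave 0.02 and HSPB11 gave -0.14.

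Partners of the chaperones that the symbol rule does not take were examined as lists. Of 36 listed co-chaperones and folding partners 25 were measured, with 13 higher and 12 lower (13 higher under quantile normalization, 21 under median centring), a median difference of 0.03, and 0 past the threshold, also with the set as a block. The smallest p values belonged to TOMM34, which links Hsp70 and Hsp90 to mitochondrial import, at -0.31 (SE 0.15), FKBP5, the glucocorticoid-induced immunophilin of the Hsp90 complex, at -0.33 (SE 0.18), and ST13, an Hsp70 co-chaperone, at 0.10 (SE 0.09). FKBP5 ran from 9.44 over 9.88 to 10.54 in high stress glands and from 9.87 over 10.16 to 11.04 in low stress glands, and these ranges overlapped. The 5 chaperones of the endoplasmic reticulum, HSPA5, HSP90B1, HYOU1, DNAJB9 and DNAJB11, had differences between -0.12 and 0.20, and 0 passed. Of them 4 were higher and 1, HSP90B1, lower, with a median of 0.19 (4 higher under quantile normalization, 4 under median centring). DNAJB11 had the smallest p, at 0.20 (SE 0.09, unadjusted p = 0.0336, adjusted p = 0.999, limma). With the set as a block its unadjusted p was 0.0167 and its adjusted p 0.733 (limma).

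More members differed between the spike-in sets than between the stress groups. Of 52 members, 19 passed between the sets (limma with stress as a covariate, adjusted p under 0.05), beside 40.6% of the 5455 tested genes. In the high-spike set 11 members were higher (16.4% of genes) and 8 lower (24.2% of genes). The median of all genes was -0.11 as deposited, -0.14 under quantile normalization and -0.25 under median centring. Under quantile normalization 13 members were higher and 9 lower, beside 15.0% and 26.7% of genes. Under median centring 8 were higher and 17 lower, beside 11.8% and 39.5% of genes. In 3 members, HSPA13, HSPE1 and HSPB1, the sets did not overlap (6.21% of genes). The actin ratio was lower and the GAPDH ratio mostly higher in the high-spike set, and their part in these differences was not tested.

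HSPA13, an Hsp70 of the microsomal compartment, ran from 9.10 over 9.58 to 10.13 in the low-spike set and from 10.46 over 10.74 to 11.08 in the high-spike set. Every high-spike array lay above every low-spike array, and the difference was 1.13 (SE 0.15, adjusted p = 5.31e-05, limma). HSPH1 ran from 10.54 over 10.91 to 11.55 and from 11.54 over 12.002 to 12.43, so the sets overlapped only narrowly. Its difference was 1.02 (SE 0.16). HSPA4, the other Hsp110-type member, was higher by 0.54 (SE 0.13).

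Among J-domain genes DNAJB4, DNAJB14, DNAJC2, DNAJC9 and DNAJC24 were higher in the high-spike set, by 0.46 to 0.90, and DNAJC11 and DNAJC17 lower, by differences of -0.26 and -0.42. The chaperonin subunits CCT2, CCT4 and CCT6A were higher, by 0.25, 0.23 and 0.61. The 3 Hsp90 machine genes and HSF1 did not pass on the deposited scale. Quantile normalization called HSP90AA1 (0.30, adjusted p = 0.00335) and HSP90AB1 (0.19, adjusted p = 0.0367, limma) higher in the high-spike set.

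HSPE1 ran from 14.89 over 14.96 to 15.17 in the low-spike set and from 14.43 over 14.66 to 14.79 in the high-spike set, a difference of -0.37 (SE 0.08). HSPB1 ran from 13.38 over 13.49 to 13.75 and from 12.89 over 13.17 to 13.35, also a difference of -0.37 (SE 0.08). The small heat shock proteins CRYAB and HSPB6 were lower as well, by differences of -0.53 (SE 0.14) and -0.84 (SE 0.16), and so were BAG1 (-0.27) and BAG6 (-0.45). The mean log2 signal of the 7 measured of 8 smooth muscle markers ran from 9.78 to 10.33 on low-spike arrays and from 9.11 to 10.02 on high-spike arrays. Its part in the values of the small heat shock proteins was not tested.

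**Figure D3:**
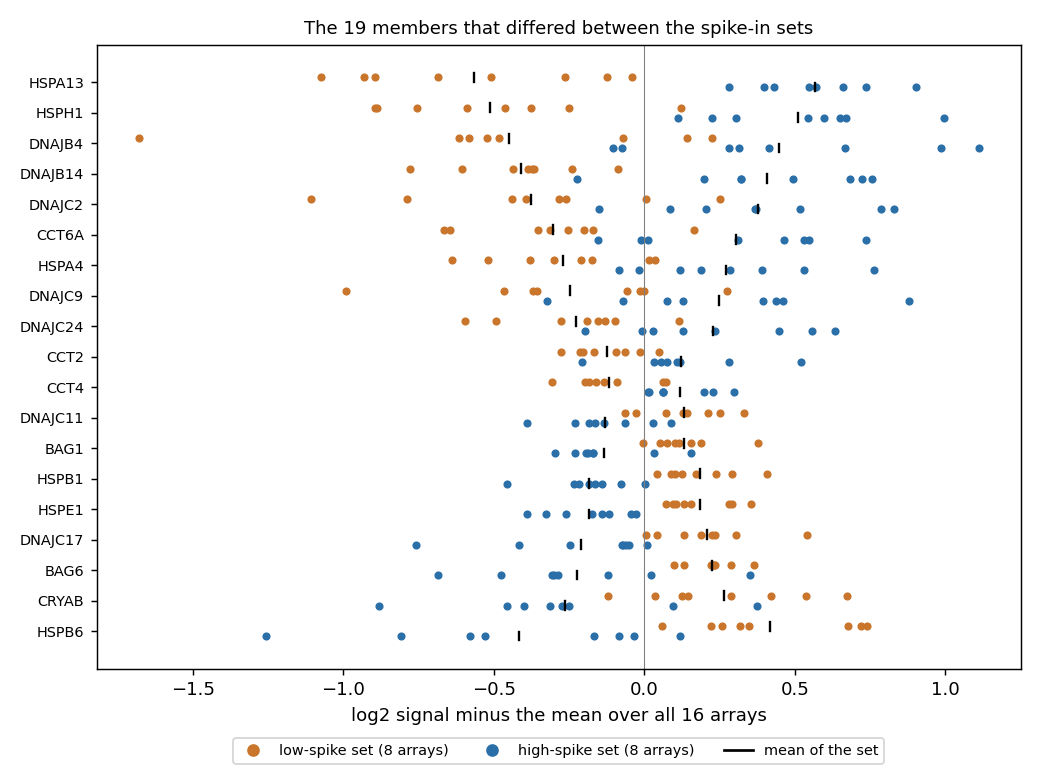
Log2 signal of each array minus the gene's mean over 16 arrays (x axis) for the 19 members that differed between the spike-in sets (y axis), with 8 low-spike arrays in orange, 8 high-spike arrays in blue and the mean of each set as a black bar. The differences run from 1.13 for HSPA13 to -0.84 for HSPB6.

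The call was kept by 14 of the 19 under quantile normalization, median centring and the leaving out of each animal in turn. HSPE1 (adjusted p = 0.196) and HSPB1 (adjusted p = 0.0955) lost it under quantile normalization, CCT2 and CCT4 under median centring (adjusted p = 0.363 and 0.385), and DNAJC9 under both (adjusted p = 0.0802 and 0.0891, limma). Quantile normalization added 6 calls (DNAJA1, DNAJA4, DNAJC5, HSP90AA1, HSP90AB1 and HSPBP1). Median centring added 9, all lower in the high-spike set (HSPA8, HSPD1, TCP1, CCT7, DNAJA4, DNAJC5, DNAJC19, HSPB2 and HSPBP1). CCT2, CCT4 and DNAJC9 also lost it when single animals were left out. Without low stress replicate 3, for example, CCT2 differed by 0.19 (adjusted p = 0.0786) and DNAJC9 by 0.41 (adjusted p = 0.0781).

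The SD of log2 signal within the sets had a median of 0.197 over the 52 tested members, beside 0.233 over all tested genes, and ran from 0.102 for HSPD1 to 0.572 for DNAJC6.

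Covariation was examined within each set, because the arrays form these separate clusters. Over 1326 pairs of members the median Pearson correlation was 0.013 among low-spike arrays and -0.0088 among high-spike arrays, beside 0.0004 and 0.016 over all gene pairs. A correlation above 0.7 was found for 3.85% and 6.49% of member pairs and for 3.20% and 5.62% of all gene pairs. Median centring moved the member medians to 0.191 and 0.101 and those of all genes to 0.130 and 0.0859. For the 12 heat-inducible members the median of 66 pairs was 0.18 in the low-spike and 0.22 in the high-spike set. These pairs share their arrays, and the values are descriptions.

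**Figure D4:**
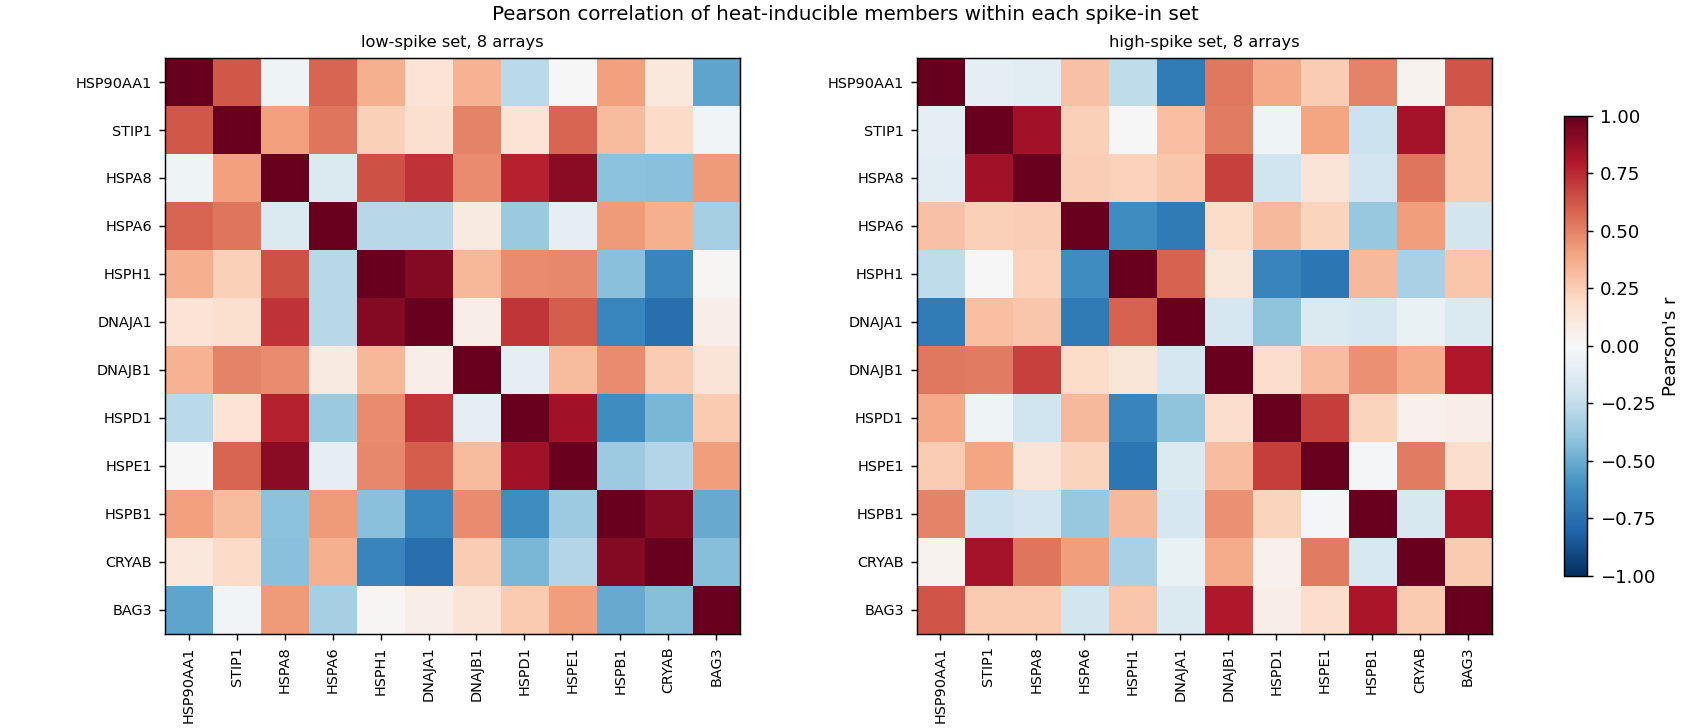
Pearson's r between the 12 heat-inducible members over the 8 arrays of the low-spike set (left) and of the high-spike set (right), from -1 in blue to 1 in red. HSPD1 and HSPE1 are positive in both panels (0.84 and 0.69), while CRYAB and HSPB1 are at 0.91 on the left and -0.16 on the right.

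Of 16 listed pairs of related members, 14 were measured, which gave 28 relations over 8 arrays each. Pearson's r was positive in 18 of them, and 1 passed after Benjamini-Hochberg adjustment over the 28. CRYAB and HSPB1, small heat shock proteins that form mixed oligomers, had r = 0.91 in the low-spike set (exact permutation p = 0.00124, adjusted p = 0.0347), with Spearman's rho = 0.90 (exact p = 0.00456, adjusted p = 0.128). Without the 2 arrays farthest from the median of CRYAB r was 0.94. In the high-spike set r was -0.16 (exact p = 0.694) and rho was -0.02 (exact p = 0.977), so the relation held in 1 of 2 sets. The difference between the sets was not tested.

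HSPD1 and HSPE1, which are neighbouring genes in the pig reference gene table, had r = 0.84 (exact p = 0.00905, adjusted p = 0.127) and rho = 0.86 (exact p = 0.0107, adjusted p = 0.15) in the low-spike set. In the high-spike set r was 0.69 (exact p = 0.0595, adjusted p = 0.339) and rho was 0.69 (exact p = 0.0694, adjusted p = 0.324). Without the 2 farthest arrays r was 0.72 and 0.58. The sign was positive in both sets, and neither relation passed the adjustment. The other neighbouring pair, CRYAB and HSPB2, had r of 0.09 and 0.80, as a description. HSP90AA1 and its partner STIP1 had r = 0.62 (exact p = 0.0975) and -0.09 (exact p = 0.84), and HSF1 and HSPH1 had r = 0.22 (exact p = 0.602) and -0.24 (exact p = 0.556). In all, 8 of the 14 pairs had opposite signs in the sets.

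**Figure D5:**
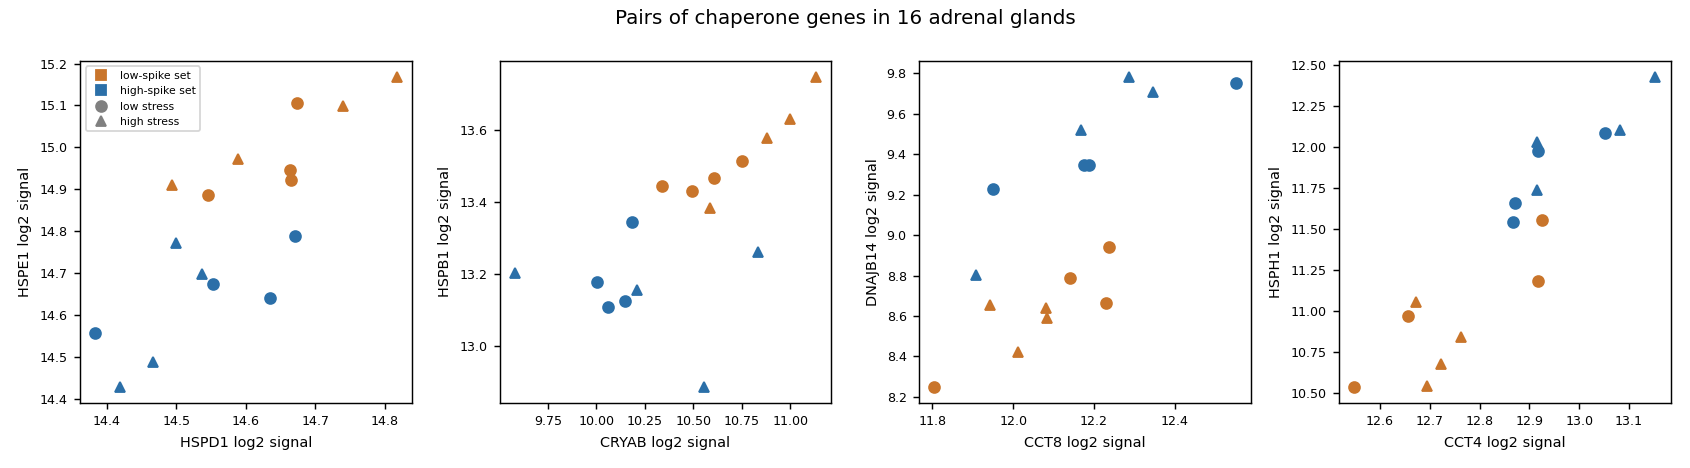
Log2 signal of 4 pairs of members (each axis 1 gene) in 16 glands, with the low-spike set in orange, the high-spike set in blue, circles for low stress and triangles for high stress. HSPD1 and HSPE1 rise together in both sets and CRYAB and HSPB1 in the low-spike set; the pairs CCT8 with DNAJB14 and CCT4 with HSPH1 were chosen for their high r in both sets.

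Chosen after their values were seen, 7 of the 1326 pairs had r above 0.7 in both sets and 2 had r below -0.7 in both. No share over all gene pairs stands beside these counts, so whether they are many or few is not known. CCT8 and DNAJB14 had r of 0.83 and 0.87, and CCT4 and HSPH1 0.77 and 0.89. CRYAB and HSPA14 had r of -0.83 and -0.76. These values come from 8 arrays each and are given as descriptions.

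The mean z score of the 12 heat-inducible members, with set means removed, ran from -0.15 to 0.99 in high stress glands and from -0.70 to 0.74 in low stress glands. Among 5403 genes outside the members, the median correlation with this score over 16 arrays was 0.07, and the 5th and 95th percentiles were -0.61 and 0.63. The most alike were HNRNPAB (0.86), MRPL17 (0.85), PSMD2 (0.83), LOC100518575 (0.82), BCAS4 (0.82), IAH1 (0.81), GORASP2 (0.80), NDUFB8 (0.80), MANF (0.80) and LRRC59 (0.80).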

How the data were processed

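The deposited values are linear MAS5 signal intensities, 1 column per animal, which the authors made in Affymetrix Expression Console, version 1.1.1 (source: the submitters' processing notes, which give MAS5 no version). The trimmed mean signal of a column had a median of 500.1 over the columns, and single columns are not listed here. Of 23999 probe sets without controls, 10069 had 1 gene symbol. Symbols of all 54 members were found in the reference table (Sscrofa11.1, for names and neighbours), 53 also by gene number.

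Values were taken to log2. Probe sets with a mean log2 under the 40th percentile (6.15) were left out, leaving 14399. The tests were run in R 4.3.3 with limma 3.58.1 (two-sided), after tests on simulated data. Members, role lists, pairs and the 2 spike-in sets were chosen with earlier results of these data known. The limma p-values measure the spread between arrays, each of 1 animal, so spread of animals and of arrays is not separated. In the stress fit without a block that spread includes the difference between the spike-in sets. The number of 16 animals limits the precision. Named genes are HSF1, the heat-inducible members, the 8 members with the smallest p, the 5 with the largest spread, the 3 co-chaperones with the smallest p and the 10 genes most like the heat-inducible score. Correlations used exact permutation over 40320 pairings. Alternatives were blocks, within-set fits, filters, normalizations, a pseudocount of 23.5, covariates, weights, probe set means and leaving out animals. Correlations were computed with numpy 2.4.6, and ranks for Spearman's rho with scipy 1.17.1. No sequence was analysed here.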

Additional observations from a re-analysis of the deposited data

Results flagged for a closer look

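In each group of 8 animals the highest or lowest value was compared with the rest by Dixon's ratio at its 95% critical value, for the 52 tested members, 104 groups in all. Chance marks about 1 in 20 such groups, and 2 were marked. CCT2, a subunit of the cytosolic chaperonin, had 12.72 in low stress replicate 3, while the other low stress animals lay between 12.04 and 12.28 (ratio 0.649). HSPD1, the mitochondrial Hsp60, had 14.38 in the same animal, while the others lay between 14.55 and 14.67 (ratio 0.557). That gland was on an array of the high-spike set.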

How the results depend on the processing

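No member passed the threshold for stress in any of the 16 fits that left out 1 animal or under any other setting listed in the methods. The median log2 difference of the members was 0.0611 under median centring, where 37 of 52 were higher (23 under quantile normalization); leaving out 1 animal gave -0.0358 to 0.00982 and 23 to 28 members higher. Of 20 named members 10 kept their sign outside the fits that left out an animal. Under median centring DNAJA1 (0.0596), HSP90AA1 (0.0498), HSPD1 (0.0443) and HSPH1 (0.0626) turned positive. Within the high-spike set DNAJA1 (0.1124), HSPH1 (0.2601), HSPB1 (-0.0624), HSPE1 (-0.0687) and HSPB8 (-0.0986) changed sign, and within the low-spike set HSPD1 (0.0227). Quantile normalization, with and without the set as a block, turned BAG3 (-0.0019) and HSPB1 (-0.013). Averaging all probe sets of a gene turned HSF1 (-0.0721), BAG3 (-0.0986), HSP90AA1 (0.0273) and HSPA8 (-0.0155). Array weights turned DNAJA1 (0.0106), and the actin covariate with the set as a block HSP90AA1 (0.047). The cause was not tested. Leaving out 1 animal gave -0.0459 to 0.066 for BAG3, -0.0555 to 0.0338 for DNAJA1, -0.0457 to 0.009 for HSP90AA1, -0.0266 to 0.097 for HSPB1, -0.048 to 0.1822 for HSPB8, -0.0486 to 0.0572 for HSPE1 and -0.1532 to 0.1161 for HSPH1. It moved others by over 1.5 times without turning them, among them DNAJC2 (-0.0853) and DNAJC9 (-0.0444) without high stress replicate 6, HSF1 without high stress replicate 4 (0.0086) and HSPA6 without high stress replicate 1 (0.0934). The median pairwise correlation was 0.191 and 0.101 under median centring for low-spike and high-spike arrays, and for the latter 0.00434 under quantile normalization and 0.0238 with ranks. Leaving out 1 animal gave -0.0117 to 0.0279 and -0.0293 to 0.00228. The fits of the set contrast with 1 animal left out, chosen after the data were seen, called 16 to 22 members. The labels give no number that pairs animals across groups; blocking on the leading digit of the animals' numbers, which occurs in both groups, gave 0 members past the threshold and 25 higher, also with the set added. Without a block the interval of HSPH1 reaches past a 1.5-fold change both ways. Those of DNAJB4, DNAJC2, DNAJC6, DNAJC9, HSPA13 and HSPB6 do so downwards, and that of CRYAB upwards. With the set as a block those of DNAJB4, DNAJC2, DNAJC6 and HSPB6 still do so, all downwards.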

Other observations

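Of the 54 members 17 had over 1 probe set above the filter. The probe sets of 12 of these gave stress differences of opposite sign, and those of 7 gave set differences of opposite sign. No share over all genes stands beside these counts. Some of the stress differences were small, such as -0.01 and 0.01 for DNAJA1. For HSP90AA1 the 5 probe sets gave stress differences of -0.02, 0.04, -0.13, 0.04 and 0.21 and set differences of 0.06, -0.18, -0.13, 0.40 and -0.29. For HSPA9 the set difference was -0.04 and -0.03 in the 2 brighter probe sets and 0.82 in the dimmest. The array reads these genes at different places, and which transcript each probe set detects was not analysed here.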
